A study of Mus musculus with 9 samples.

Results

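The Notch genes followed here were the receptors Notch1, Notch2 and Notch3, the ligands Jag1 and Jag2, the DNA-binding factor Rbpj, and the target genes Hes1 and Hey1. They were picked by symbol, 8 of the 15158 genes in the deposited expression table, and all 8 passed the filter on low values that 12347 genes passed. The RNA came from uterine luminal epithelium, the sheet of cells lining the uterine lumen, cut out by laser capture on pregnancy day 4 from females kept to 8 weeks of age. There were 3 genotypes with 3 libraries each. Wnt7acre females carried the cre recombinase alone and served as controls. The ePRAoe females (Wnt7acre/+PgrALsL/+) were built to overexpress isoform A of the progesterone receptor in the epithelium, and the ePRBoe females (Wnt7acre/+PgrBLsL/+) isoform B, so every group carried the cre. Wnt7a-cre acts in the epithelium of the uterus, and a gene behind a lox-stop-lox cassette (LsL) is switched on only where the cre has acted. The replicates are numbered and the animals are not named, and p-values here reflect only how far these 9 libraries spread, which may in part be technical.

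Notch receptors are membrane proteins that are cut after they meet a ligand of the Jagged or Delta-like family on a neighbouring cell. The freed intracellular domain enters the nucleus, binds the DNA-binding protein RBPJ together with a Mastermind-like coactivator, and switches on genes of the Hes and Hey families, which encode transcriptional repressors. In the mouse uterus the pathway is known for parts in embryo orientation and in the conversion of stroma to decidua.

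The promoters of 6 of the 8 genes were matched in a RefSeq promoter table (GRCm38.p6), and Hes1 and Hey1 were not. Those of Notch2, Jag1 and Rbpj are shown because the libraries of these genes did not overlap between ePRAoe and Wnt7acre. The stretch shown lies upstream of a RefSeq start and is cut short before any annotated exon in the window. For Rbpj that start is an internal one, within the annotated span of the gene. Each reads 5′ to 3′ on the gene's own strand and has in capitals TGGGAA, the core of the RBPJ binding motif.
Rbpj, chr5:53590096-53590213, plus strand
Rbpj: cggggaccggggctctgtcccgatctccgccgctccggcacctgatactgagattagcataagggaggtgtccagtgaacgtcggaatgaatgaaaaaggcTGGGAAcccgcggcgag
Notch2, chr3:98013288-98013526, plus strand
Notch2: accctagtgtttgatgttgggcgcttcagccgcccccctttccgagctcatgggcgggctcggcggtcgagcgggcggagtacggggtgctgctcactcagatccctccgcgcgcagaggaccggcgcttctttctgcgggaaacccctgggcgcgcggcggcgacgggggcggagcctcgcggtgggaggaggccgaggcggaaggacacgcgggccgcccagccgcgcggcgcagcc
Jag1, chr2:137116645-137116770, minus strand
Jag1: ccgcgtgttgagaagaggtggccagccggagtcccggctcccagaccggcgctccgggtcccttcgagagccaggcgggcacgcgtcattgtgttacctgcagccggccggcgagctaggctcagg
TGGGAA, searched on both strands, was found among the matched genes only in Rbpj. Its first promoter window of 300 bases held these letters at 2 places, 1 of them in the stretch shown. The second window overlaps the first, and the 1 place it held is the other of these 2. The same letters occur in 25.6% of all 32817 promoters of that length. The longer GTGGGAA, which contains the core, was in none of the matched promoters and is in 6.39% of all. A match is a description of the letters and says nothing of binding.

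Library values are in FPKM, that is fragments counted on a gene relative to its length and to a sequencing depth,, and summed to between 272213 and 314010 per library. The total reads per library are not stated. Only a step in the values common to all 9 libraries was looked for. It was found for Jag2 and Hey1, whose values thus show no scaling that differs between libraries, and for none of the other members. Pgr, the overexpressed gene, checked the labels of controls against the 2 lines. Controls measured 3.82 to 17.4 FPKM, ePRAoe libraries 41.7 to 49.5 and ePRBoe libraries 38.1 to 45.9, without overlap between controls and either line. Pgr is 1 row for both isoforms and the 2 lines overlapped in it, so it does not check which isoform a line carries. Luminal epithelial markers were abundant in every library, with sums of 1540 to 1810 FPKM in controls, 1290 to 1830 with isoform A and 1520 to 1720 with isoform B. Markers of other cells moved with genotype. The 12 stromal markers summed to 86.7 to 119 FPKM in controls, 233 to 389 in ePRAoe libraries and 387 to 549 in ePRBoe libraries. All 12 had positive fitted differences in each line against controls. By the rule given below, 10 of 12 were called higher in each, beside 7.2% of all genes in ePRAoe and 6.41% in ePRBoe. The 10 immune markers summed to 133 to 234 in controls, 91.6 to 128 in ePRAoe libraries and 317 to 377 in ePRBoe libraries. Of these, 4 of 10 were called lower in ePRAoe (8.98% of all genes) and 6 of 10 higher in ePRBoe (6.41%). Endothelial markers summed to 14.0 to 21.2, 16.5 to 35.2 and 51.2 to 78.8 in the same order, and those of smooth muscle and pericytes to 19.6 to 37.9, 28.7 to 60.0 and 67.8 to 166, where ePRBoe replicate 2 was the highest. Gland markers summed to 17.3 to 47.5, 2.13 to 8.98 and 10.2 to 65.5. The 65.5 was in ePRBoe replicate 1, beside 12.7 in replicate 2 and 10.2 in replicate 3. Of 3 gland markers tested in ePRAoe, Spink1 was called lower and Aldh1a1 higher, so the list did not move as 1. No marker was at 0 in all libraries. The part of these shifts in the Notch values below was not tested, and in bulk RNA fewer cells of a type and less RNA per cell cannot be told apart.

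**Figure D1:**
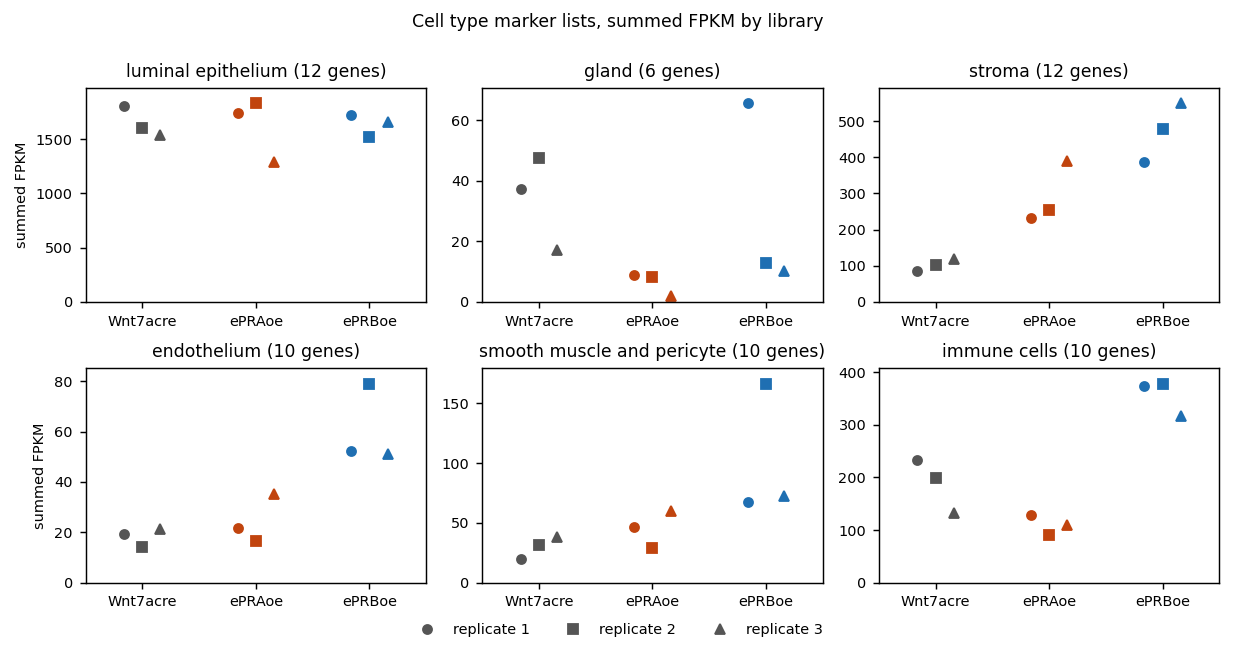
Summed FPKM of 6 cell type marker lists (vertical axes, each from 0) in the 9 libraries, grouped by genotype on the horizontal axis; each symbol is 1 library. The stromal sums lie at 86.7 to 119 in Wnt7acre and at 387 to 549 in ePRBoe, while the luminal epithelial sums overlap between the genotypes.

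Notch2, Jag1, Rbpj and Hes1 are among 4239 rows that stand out of alphabetical order in the deposited table, and symbols were taken as the table gives them. Differences were fitted with limma on log2(FPKM + 1) with terms for genotype and sequencing run, and a gene was called where its p, adjusted by Benjamini and Hochberg over the 12347 genes, was under 0.05. The fitted differences below are log2 differences on that scale, which understates changes of low genes, and ratios given as times are of mean FPKM. The 3 runs were read from the prefix and date in the library names of the labels. All ePRBoe libraries were in run 1, with Wnt7acre replicate 3 and ePRAoe replicate 2, so a fitted ePRBoe difference is adjusted for run and is not the plain ratio of the group means. Replicate 2 of Wnt7acre shared run 2 with replicate 3 of ePRAoe, and the first replicates of these groups shared run 3.

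Hes1 and Notch2 fell in ePRAoe, Hes1 fell in ePRBoe, and no Notch member was called between the 2 overexpressing lines. In ePRAoe against Wnt7acre 0 of 8 members rose and 2 fell, in a comparison that called 16.2% of all genes tested, 7.2% as higher and 8.98% as lower. In ePRBoe against Wnt7acre 0 rose and 1 fell, where 8.89% of all genes were called, 6.41% as higher and 2.48% as lower. The called members are thus 25.0% and 12.5% of 8, counts too small to set them apart from all genes. Both genes called, Notch2 and Hes1, stand in rows out of alphabetical order. Those rows held 3733 of the 12347 genes tested, 1896 of the 1998 called in ePRAoe and 797 of the 1098 called in ePRBoe. The median log2 difference of the 8 was -0.26 in ePRAoe, beside -0.03 over all genes, and 0.20 in ePRBoe, beside 0.10.

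**Figure D2:**
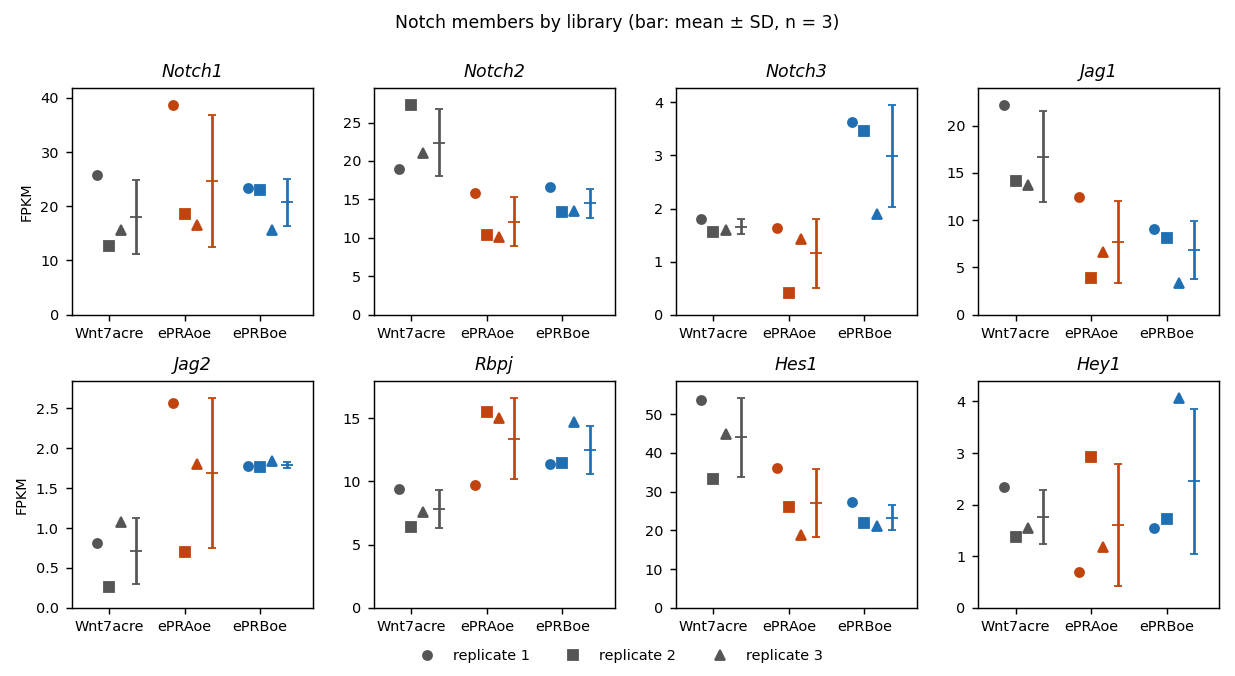
FPKM of the 8 Notch genes (vertical axes, each from 0) in every library, grouped by genotype on the horizontal axis; symbols mark the replicate number and the bars give the mean and SD of 3 libraries. Notch2, Jag1 and Rbpj show no overlap between Wnt7acre and either line, and Hes1, Notch3 and Jag2 none between Wnt7acre and ePRBoe.

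Of the receptors, Notch2 was lower in both lines and was called in ePRAoe. Its gene spans chr3:98013527-98150361 on the plus strand of mm10 and shares some exonic bases with the predicted gene Gm42820 on the same strand. It measured 19.0, 27.3 and 21 FPKM in Wnt7acre replicates 1 to 3, 15.8, 10.4 and 10.1 in ePRAoe, and 16.6, 13.3 and 13.5 in ePRBoe. Every library of either line lay below every control. The means were 22.4 ± 4.31 in Wnt7acre, 12.1 ± 3.18 in ePRAoe and 14.5 ± 1.86 in ePRBoe (SD, n = 3 each). The fitted difference in ePRAoe was -0.85 (SE 0.21, 95% interval -1.34 to -0.36, limma adjusted p = 0.0336). Within runs 1, 2 and 3 it was -0.95, -1.36 and -0.26. The call was lost without any 1 of Wnt7acre replicates 2 or 3, ePRAoe replicates 2 or 3, or the 3 ePRBoe libraries, with differences of -1.15 to -0.60 over all 9 omissions and adjusted p up to 0.151. It was also lost with only the 2 genotypes in the fit (0.0873). In ePRBoe the difference was -0.47 (SE 0.26, adjusted p = 0.299), and -0.52 within run 1. The summed stromal markers were higher in every library of either line than in any control, as given above, and their part in the Notch2 value was not tested.

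Notch1, the most abundant of the receptors by mean over all libraries (77.8th percentile of the genes in the table), was not called in any comparison. It measured 25.7, 12.7 and 15.7 FPKM in Wnt7acre, 38.7, 18.6 and 16.6 in ePRAoe, and 23.4, 23.0 and 15.6 in ePRBoe. The 3 groups overlapped, and the highest library of both Wnt7acre and ePRAoe was the one sequenced in run 3. The differences from Wnt7acre were 0.39 in ePRAoe (SE 0.18, limma adjusted p = 0.181) and 0.43 in ePRBoe (SE 0.22, adjusted p = 0.266). The gene lies at chr2:26457903-26516663 on the minus strand. Its exons overlap those of the opposite-strand genes 0610009E02Rik and Gm13568. The strand setting of the counting is not given in the sources used here, so their reads could not be told apart.

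Notch3, a receptor best known from smooth muscle and pericytes, was low beside Notch1 and Notch2 and was highest in ePRBoe. It measured 1.81, 1.56 and 1.60 FPKM in Wnt7acre, 1.63, 0.412 and 1.43 in ePRAoe, and 3.63, 3.47 and 1.89 in ePRBoe. Every ePRBoe library lay above every library of the other groups, with ePRBoe replicate 3 close to the highest control. The difference of ePRBoe from Wnt7acre was 0.85 (SE 0.32, limma adjusted p = 0.145), and that from ePRAoe 1.20 (SE 0.32, adjusted p = 0.128), so neither was called. In ePRAoe the difference from Wnt7acre was -0.35 (SE 0.26, adjusted p = 0.403). The immune marker sums were likewise highest in ePRBoe (317 to 377 FPKM) and lowest in ePRAoe (91.6 to 128), beside 133 to 234 in controls. The sums of the smooth muscle and pericyte markers and of the endothelial markers were also higher in every ePRBoe library than in any other. Single markers did so in part. Of 7 smooth muscle and pericyte markers tested, ePRBoe was wholly above controls for 3 (23.5% of all genes) and above ePRAoe for 2 (16.8%). For the endothelial markers it was 7 and 4 of 8. The part of these cell types in the Notch3 value was not tested. Notch3 (chr17:32120820-32166852, minus strand) shares exonic bases with the opposite-strand gene Gm17276.

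Of the ligands, Jag1 was lower in both lines, on the edge of the threshold in ePRAoe. It measured 22.2, 14.1 and 13.7 FPKM in Wnt7acre, 12.4, 3.89 and 6.67 in ePRAoe, and 9.03, 8.14 and 3.32 in ePRBoe. Every library of either line was below every control, and the run 3 libraries were the highest of Wnt7acre and of ePRAoe. The control mean was 16.7 ± 4.8, 2.17 times that of ePRAoe (7.67 ± 4.36) and 2.44 times that of ePRBoe (6.83 ± 3.07; SD, n = 3 each). The fitted differences were -1.12 in ePRAoe (SE 0.33, 95% interval -1.88 to -0.35, limma adjusted p = 0.0571) and -0.77 in ePRBoe (SE 0.40, adjusted p = 0.282). The ePRAoe difference was called without ePRBoe replicate 3 (adjusted p = 0.0157) and with only the 2 genotypes in the fit (adjusted p = 0.0329). Jag1 lies at chr2:137081456-137116644 on the minus strand.

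Jag2, a second Jagged ligand, was the lowest of the 8 genes in Wnt7acre and in ePRBoe. It measured 0.806, 0.262 and 1.07 FPKM in Wnt7acre, 2.57, 0.694 and 1.80 in ePRAoe, and 1.78, 1.76 and 1.84 in ePRBoe. The ePRBoe libraries were close together and all above the controls, while ePRAoe overlapped Wnt7acre through its replicate 2. The differences were 0.61 in ePRAoe (SE 0.28, limma adjusted p = 0.186) and 0.88 in ePRBoe (SE 0.35, adjusted p = 0.161). The ePRAoe difference was 1.07 and called without Wnt7acre replicate 3 (adjusted p = 0.0399) or without ePRAoe replicate 2 (adjusted p = 0.0382). The values of Jag2 fell on whole multiples of a common step of 0.0188 FPKM (within 0.05 of a step), and if that step is 1 read they stood for 14 to 137 reads per library. The 2 ligands therefore had fitted differences of opposite sign in both lines, of which none was called with all 9 libraries. Jag2 lies at chr12:112907819-112929776 on the minus strand.

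Rbpj, the factor through which the cut receptors reach DNA, was higher in both lines and was not called. It measured 9.37, 6.36 and 7.62 FPKM in Wnt7acre, 9.70, 15.5 and 15.0 in ePRAoe, and 11.4, 11.5 and 14.7 in ePRBoe. No library of either line overlapped the controls, although ePRAoe replicate 1 exceeded the highest control by little. The means were 7.79 ± 1.51, 13.4 ± 3.22 and 12.5 ± 1.88 (SD, n = 3 each). The differences were 0.70 in ePRAoe (SE 0.22, 95% interval 0.18 to 1.22, limma adjusted p = 0.0718) and 0.52 in ePRBoe (SE 0.27, adjusted p = 0.278). Within runs 1, 2 and 3 the ePRAoe difference was 0.93, 1.12 and 0.04. Without either of the run 3 libraries it was 1.03 and called (adjusted p = 0.00948 without Wnt7acre replicate 1 and 0.00963 without ePRAoe replicate 1). The gene lies at chr5:53466152-53657362 on the plus strand, and the promoter printed above belongs to an internal start. GENCODE M21 holds processed pseudogenes, Rbpj-ps1 and Rbpj-ps3, that are not rows of the table, and how the authors' counting treated reads shared with them is not given in the sources used here, so the Rbpj level is uncertain to that extent.

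Hes1, a repressor and the best known Notch target, was the most abundant of the 8 genes and fell in both lines. It measured 53.7, 33.3 and 44.9 FPKM in Wnt7acre, 36.2, 26.0 and 18.9 in ePRAoe, and 27.2, 21.8 and 21.1 in ePRBoe. All ePRBoe libraries were below all controls, and ePRAoe overlapped the controls through its replicate 1, which was in run 3 with the highest control. The control mean of 44.0 ± 10.2 was 1.63 times that of ePRAoe (27.0 ± 8.7) and 1.88 times that of ePRBoe (23.3 ± 3.34; SD, n = 3 each). The fitted difference was -0.70 in ePRAoe (SE 0.14, 95% interval -1.03 to -0.38, limma adjusted p = 0.0153). In ePRBoe it was -0.89 (SE 0.17, 95% interval -1.29 to -0.50, adjusted p = 0.0211). Every run showed the lower value: -0.77, -0.79 and -0.56 for ePRAoe in runs 1, 2 and 3, and -0.92 for ePRBoe in run 1. The ePRAoe call was lost without any 1 of Wnt7acre replicates 2 or 3 or ePRAoe replicates 2 or 3 (adjusted p = 0.0714 to 0.0766), without the run term (0.0956), and with only the 2 genotypes in the fit (0.0563). For ePRBoe the call was gone without Wnt7acre replicate 3 (0.174), ePRAoe replicate 2 (0.0678), ePRBoe replicate 2 (0.0753) or ePRBoe replicate 3 (0.073). The difference itself stayed within -0.78 to -0.66 in ePRAoe and -1.0 to -0.83 in ePRBoe over all omissions. Stromal markers rose in the same comparisons, and their part in the Hes1 value was not tested. Hes1 lies at chr16:30064384-30067796 on the plus strand.

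Hey1, the other target in the set, was low and was not called in any comparison. It measured 2.34, 1.38 and 1.55 FPKM in Wnt7acre, 0.69, 2.93 and 1.17 in ePRAoe, and 1.55, 1.72 and 4.07 in ePRBoe. Both lines overlapped the controls, and ePRBoe replicate 3 was the highest library. The differences were -0.16 in ePRAoe (SE 0.37, limma adjusted p = 0.799) and -0.03 in ePRBoe (SE 0.45, 95% interval -1.07 to 1.01, adjusted p = 0.973). Within runs 1, 2 and 3 the ePRAoe difference was 0.62, -0.13 and -0.98, so its sign differed between runs. If the common step of 0.0345 FPKM is 1 read, the values of Hey1 stood for 20 to 118 reads per library. The difference between Hes1 and Hey1 in response was not itself tested. Hey1 lies at chr3:8663359-8667256 on the minus strand.

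**Figure D3:**
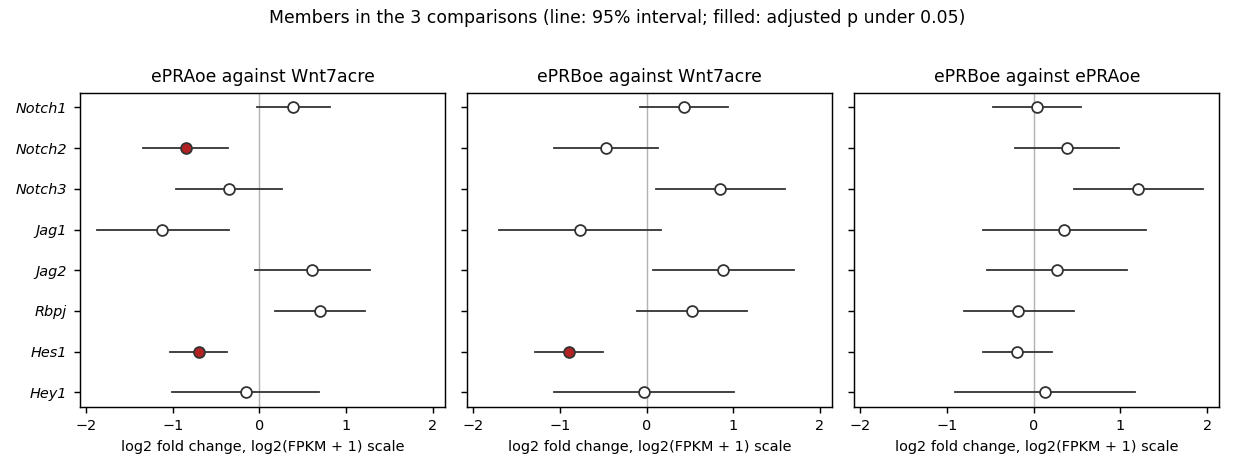
Fitted log2 differences of the 8 genes (horizontal axes, log2(FPKM + 1) scale) in the 3 comparisons; points are estimates, lines are 95% intervals and filled points have an adjusted p under 0.05. Filled points are Notch2 (-0.85) and Hes1 (-0.70) in ePRAoe and Hes1 (-0.89) in ePRBoe, and there are none between the lines.

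Set against each other, the 2 lines gave 0 of 8 members called by limma, in a comparison that called 0.324% of all genes. At an unadjusted p under 0.05 it was 1 of 8, Notch3, beside 18.7% of all genes. The differences of ePRBoe from ePRAoe for the genes that fell were -0.19 for Hes1 (SE 0.17, 95% interval -0.58 to 0.21, adjusted p = 0.573) and 0.38 for Notch2 (SE 0.26, adjusted p = 0.451). These intervals do not show that the isoforms act alike. Jag1 differed by 0.35 (adjusted p = 0.663), Jag2 by 0.27 (0.704), Rbpj by -0.18 (0.754), Hey1 by 0.13 (0.893) and Notch1 by 0.04 (0.933). The 2 comparisons with Wnt7acre share its 3 control libraries, so their values stand side by side and were not correlated.

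The number of members whose libraries did not overlap was also counted without a model. Against Wnt7acre, ePRAoe was wholly higher for 1 of 8 members (12.6% of all genes) and wholly lower for 2 (16.2%). ePRBoe was wholly higher for 3 (23.5%) and wholly lower for 3 (16.3%). Against ePRAoe, ePRBoe was wholly higher for 1 (16.8%) and wholly lower for 0 (5.8%).

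FPKM is per length, so the levels of the genes can be ordered within a genotype. In Wnt7acre the order of the means was Hes1, Notch2, Notch1, Jag1, Rbpj, Hey1, Notch3 and Jag2. Neighbours overlapped between Notch2 and Notch1, between Notch1 and Jag1, and between Hey1 and Notch3. In ePRAoe the order was Hes1, Notch1, Rbpj, Notch2, Jag1, Jag2, Hey1 and Notch3, and only Notch1 with Rbpj and Jag1 with Jag2 did not overlap. In ePRBoe it was Hes1, Notch1, Notch2, Rbpj, Jag1, Notch3, Hey1 and Jag2, and only Rbpj and Jag1 did not overlap. Jag1 stood above Rbpj in every control library and, by mean, below it in both lines. Notch2 stood above Notch1 by mean in the controls and below it in both lines, with overlap between these 2 genes in the controls.

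As a description over the 9 libraries, which share runs and genotype differences, Notch2 and Rbpj ran opposite to each other (Pearson r of log2(FPKM + 1) -0.952), as did Jag1 and Rbpj (-0.819), while Jag1 and Hes1 ran together (0.828). Among the 8226 genes averaging 5 FPKM or more, those most like each member were as follows. For Notch2 they were Slc44a4 (0.988), Copb2 (0.986) and Mpc2 (0.984), and 45 genes exceeded 0.95. For Rbpj they were Iah1 (0.977), Ube2e2 (0.975) and Sla (0.975), and 24 genes exceeded 0.95. Jag1 was most like Parp14 (0.981), Tor1aip1 (0.974) and Itgb4 (0.972), and Notch1 most like Jarid2 (0.985), Mir6947 (0.974) and Dab2 (0.972). No gene exceeded 0.95 with Hes1, whose nearest were Papd5 (0.93), Slc4a2 (0.924) and Gdi2 (0.924). Notch3 was nearest to C1qa (0.948), Klrd1 (0.946) and Tmem9 (0.93), of which C1qa is made by macrophages and Klrd1 by natural killer cells. Jag2 was nearest to Psat1 (0.966), Etfrf1 (0.929) and Scara5 (0.925), and Hey1 to Spcs2 (0.946), Rpl23a (0.945) and Rps13 (0.921).

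The rest of the pathway was read from a list of 67 genes, of which 61 were in the table and 54 were tested. In ePRAoe 6 rose and 4 fell (18.5% of the 54, beside 16.2% of all genes), with a median of -0.17 beside -0.03. In ePRBoe 1 rose and 1 fell (3.7%, beside 8.89%), with a median of 0.04 beside 0.10. Between the lines limma called 0 (0.324% of all genes), with 10 of 54 at an unadjusted p under 0.05, beside 18.7% of all genes. The ePRAoe count was 13 without either run 3 library (Wnt7acre or ePRAoe replicate 1), 5 without Wnt7acre replicate 2 or ePRAoe replicate 3, and 3 without Wnt7acre replicate 3 or ePRAoe replicate 2. The ePRBoe count was 7 without either run 3 library, 3 without Wnt7acre replicate 2 or ePRAoe replicate 3, and 1 without any of the other 5.

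Rfng, a Fringe enzyme that adds sugars to Notch receptors and tunes which ligands they answer to, was the only gene of that list of 67 called in both lines. It measured 14.8, 6.89 and 9.19 FPKM in Wnt7acre, 46.5, 38.4 and 29.9 in ePRAoe, and 42.2, 36.3 and 38.5 in ePRBoe. Every library of either line lay above every control. Rfng rose by 1.84 in ePRAoe (SE 0.13, limma adjusted p = 0.00105) and by 1.91 in ePRBoe (SE 0.16, adjusted p = 0.00281), and kept both calls in all 20 alternative fits. The lines did not differ detectably from each other (0.08, adjusted p = 0.825). None of the other 4 glycosyltransferases tested was called.

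Of 9 proteases tested, among them the parts of gamma-secretase that cut the receptor, none was called in either line. The most abundant were Psenen, at 71.7 ± 6.03 FPKM in Wnt7acre, 81.8 ± 5.89 in ePRAoe and 77.3 ± 6.08 in ePRBoe, and Ncstn, at 63.4 ± 6.02, 50.9 ± 3.6 and 57.0 ± 1.01 (SD, n = 3 each). Of the other receptor and ligands only Dll4, a Delta-like ligand, passed the filter. It measured 8.81, 3.61 and 6.76 FPKM in Wnt7acre, 3.57, 0.397 and 1.98 in ePRAoe, and 5.55, 3.17 and 1.43 in ePRBoe. Its ePRAoe difference of -1.40 was not called (SE 0.44, adjusted p = 0.0677). Notch4, a receptor of endothelium, stood at 0.192 ± 0.0566, 0.177 ± 0.126 and 0.461 ± 0.225 and was not tested.

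Genes listed under ligand or receptor turnover were called in ePRAoe for 3 of the 12 tested, beside 16.2% of all genes, a count too small to set them apart. Neurl3, of the Neuralized family of ubiquitin ligases, fell from 5.25 ± 1.16 FPKM to 1.48 ± 1.05 (log2 difference -1.40, SE 0.30, limma adjusted p = 0.0194). Numb and Numbl, adaptors that restrain Notch receptors, both rose: Numb from 18.5 ± 3.16 to 31.0 ± 6.94 (0.70, SE 0.12, adjusted p = 0.0104). Numbl rose from 2.55 ± 0.891 to 8.68 ± 4.54 (1.35, SE 0.25, adjusted p = 0.013). In ePRBoe the fitted values were -0.29 for Neurl3, 0.46 for Numb and 0.73 for Numbl, none called. Without Wnt7acre replicate 3 or ePRAoe replicate 2 the 3 calls were lost (adjusted p = 0.0598 to 0.0964), that of Numb also with only the 2 genotypes in the fit (0.0612), and that of Numbl also without Wnt7acre replicate 2 (0.0563) or ePRAoe replicate 3 (0.0577).

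Mastermind-like coactivators, which join RBPJ and the receptor fragment, moved in opposite directions in ePRAoe. Maml2 rose from 5.0 ± 2.05 FPKM to 12.3 ± 3.18 (1.17, SE 0.23, limma adjusted p = 0.0146). Maml3 fell from 9.44 ± 6.64, over controls of 2.80, 16.1 and 9.42, to 0.833 ± 0.0983 (-2.26, SE 0.38, adjusted p = 0.00914). In ePRBoe Maml2 gave 0.35 and Maml3 -1.51 (adjusted p = 0.478 and 0.0925). Both ePRAoe calls were lost without Wnt7acre replicate 3 or ePRAoe replicate 2 (0.0614 to 0.0634), and that of Maml2 also without Wnt7acre replicate 2 (0.0685) or ePRAoe replicate 3 (0.0717). Kat2a, a histone acetyltransferase, fell in ePRAoe from 25.4 ± 5.82 to 16.6 ± 2.92 (-0.58, SE 0.15, adjusted p = 0.0396), a call lost in 11 of 20 alternative fits, without Wnt7acre replicates 2 or 3, ePRAoe replicates 2 or 3, or ePRBoe replicates 2 or 3 among them (0.0606 to 0.159).

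Of 12 corepressors tested, Tle2, of the Groucho family that Hes proteins recruit, rose in ePRAoe from 1.32 ± 0.725 FPKM to 3.35 ± 1.88 (0.88, SE 0.19, limma adjusted p = 0.0221). The groups overlapped, with ePRAoe replicate 3 at 1.76 and Wnt7acre replicate 1 at 1.83. The call was lost without Wnt7acre replicates 1 or 2, or ePRAoe replicates 1 or 3 (0.0555 to 0.0886), without the run term (0.124), and with only the 2 genotypes in the fit (0.0796). Ctbp2 fell in ePRBoe from 30.5 ± 2.41 to 17.5 ± 1.67 (-0.81, SE 0.15, adjusted p = 0.021), and was at 24.4 ± 2.43 in ePRAoe (-0.31, adjusted p = 0.134). That call was lost without Wnt7acre replicate 3, ePRAoe replicate 2, or any 1 of the ePRBoe libraries (0.053 to 0.103).

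Among 7 other targets tested, Myc, a growth regulator with many inputs beside Notch, fell in ePRAoe from 102 ± 61.6 FPKM to 23.3 ± 9.86 (-1.96, SE 0.28, limma adjusted p = 0.00533), a call kept in all 20 alternative fits. In ePRBoe it stood at 32.8 ± 6.25 (-1.21, adjusted p = 0.0721). Hey2, a relative of Hey1, rose in ePRAoe by 0.97 (SE 0.27, adjusted p = 0.0487), from 2.49, 0.54 and 1.92 FPKM to 10.2, 3.0 and 1.65. The groups overlapped, and the call was lost in 14 of 19 alternative fits, including without any 1 library.

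**Figure D4:**
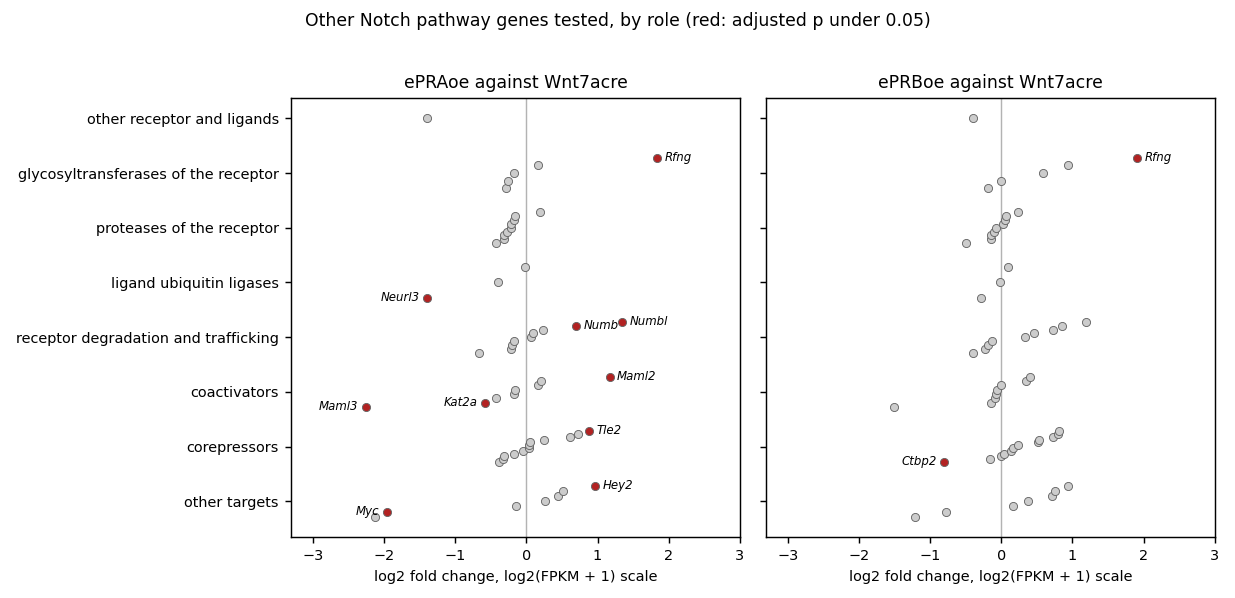
Fitted log2 differences of the other tested pathway genes (horizontal axes, log2(FPKM + 1) scale), by role on the vertical axis, in ePRAoe and ePRBoe against Wnt7acre; each point is 1 gene and red points, which are named, have an adjusted p under 0.05. Rfng lies at 1.84 and 1.91 in the 2 panels, and 10 genes are red in ePRAoe against 2 in ePRBoe.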

How the data were processed

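Laser-captured luminal epithelium of 9 mouse samples (3 genotypes, 3 libraries each) was measured by RNA-seq. The authors deposited 1 table of FPKM per gene symbol. Per the submitters' processing notes, the build was mm10 and the tools were STAR 2.5.2b, featureCounts 1.5.0-p1, edgeR 3.28.0 and limma 3.42.2. Annotation, strand setting and gene lengths: not given in the sources used here. FPKM are not counts, so no count model was run and depth is unknown. Steps, looked for after the values were seen, give reads for Jag2 and Hey1 only if 1 step is 1 read.

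Values were taken as log2(FPKM + 1), genes reaching 1 FPKM in 3 or more of 9 libraries were kept, and limma 3.58.1 (R 4.3.3; trend, 4 residual and 3.64 prior degrees of freedom) fitted genotype and run over all 9 libraries, two-sided, tested on simulated data. Omitting a library kept this filter. Alternatives varied the pseudocount, filter, scaling, run term, replicate block, groups fitted and libraries. Positions are from GENCODE M21, in which 98.8% of symbols were found. Motif letters were chosen after the data were seen.

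The 8 members and all lists were chosen with earlier results of these data known. Named were the members, Pgr, per role of the other pathway genes up to 3 called genes with the smallest adjusted p or otherwise the 2 most abundant, and per member the 3 genes of highest Pearson r.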

Additional observations from a re-analysis of the deposited data

How the results depend on the processing

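The limma fit was repeated under 20 alternatives. Over 38 values of single genes and 747 refits, 634 kept sign and side of the threshold, 76 lost a call, 7 gained one and 30 changed sign. No called value changed sign. The number of members called in ePRAoe was 1 without a run term, 1 with only the 2 genotypes compared in the fit and 1 with a replicate block in place of run (Hes1 was lost, adjusted p = 0.0554; the block also ended the ePRAoe calls of Numb, 0.0647, Tle2, 0.131, Kat2a, 0.139, and Hey2, 0.241), and 0 to 3 with a library left out. In ePRBoe it was 2 with the replicate block (Hes1 and Jag1, the latter -1.23 with an adjusted p of 0.0434) and 0 to 1 with a library left out. Between the lines it was 0 to 0.

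Other pathway genes called in ePRAoe were 6 with a mean of at least 5 FPKM required, 6 with only 2 genotypes, and 3 to 13 with a library left out. In ePRBoe they were 4 without the run term, 5 with the replicate block, 6 with only 2 genotypes and 1 to 7 with a library left out. Between the lines they were 1 with only 2 genotypes and 0 to 2 with a library left out.

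Over all genes, ePRAoe gave 1998 calls, 1113 with the replicate block, 1063 with only 2 genotypes and 747 to 2719 with a library left out. ePRBoe gave 1098, 653 with the mean of at least 5 FPKM, 1786 without the run term and 232 to 1602 with a library left out. Between the lines there were 40, 19 without a filter, 22 with median-of-ratios scaling, 15 with quantile scaling, 7 without the run term, 4 with the replicate block, 453 with only 2 genotypes and 0 to 546 with a library left out. The causes were not tested.

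The labels do not say that replicate numbers mark a shared animal, litter or day. The correlations of deviations between same-numbered libraries ran from -0.23 to 0.171, and those between libraries of the same run from -0.257 to 0.315. These values do not set run apart from replicate number. The numbers were not taken as pairs because the labels do not give them as such. Run was kept as a term because all ePRBoe libraries came from 1 run.

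Sign changes were all of values that were not called. In ePRAoe Hey1 ran from -0.56 to 0.25 with a library left out. In ePRBoe Hey1 was 0.26 without the run term, 0.26 with the replicate block, 0.36 with only 2 genotypes and -0.82 to 0.36 with a library left out. Between the lines Hey1 was -0.25 with quantile scaling, -0.26 with only 2 genotypes and -0.26 to 0.92 with a library left out, and Rbpj -0.34 to 0.06. Jag2 was -0.12 with quantile scaling and -0.63 to 0.72 with a library left out. Notch1 was -0.01 as TPM, -0.14 with median-of-ratios and -0.05 with quantile scaling, -0.17 without the run term, -0.17 with the replicate block and -0.11 to 0.22 with a library left out. Jag1 was -0.12 without the run term, -0.12 with the replicate block and -0.12 to 0.73 with a library left out.

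Scaling moved the median of all genes from 0.10 to -0.03 in ePRBoe and from 0.15 to -0.02 or -0.03 between the lines. As TPM they were 0.11 and 0.12. With 3 libraries a group and unknown depth, a difference that was not called is not shown to be absent.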

Other observations

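The rows of the deposited table were not all in alphabetical order. Of 15158 rows, 10919 followed the alphabet (8614 tested) and 4239 stood out of it (3733 tested). The latter held 1896 of the 1998 genes called in ePRAoe against Wnt7acre, and the former 102. In ePRBoe against Wnt7acre 797 called genes stood out of order and 301 in order, and between the lines 18 and 22. The shares over all genes given beside the members thus mix rows with unlike shares called. Notch2, Jag1, Rbpj and Hes1 stood out of order, and Notch1, Notch3, Jag2 and Hey1 in order. For low genes (maximum under 3 FPKM, at least 6 libraries above 0) with a common step of values, the gene length that the step implies correlated across genes with the annotated length of the symbol at Spearman's rho 0.736 over 50 genes out of order and 0.639 over 340 in order, as a description without a p. The 4 members out of order are too abundant for such a step to be read, so their rows were not checked this way. Why the rows are ordered so was not tested.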
